A study of Rattus norvegicus with 20 samples.

Results

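Described here are 9 genes that take part in the oxidation of long- and medium-chain fatty acids in mitochondria, or help to set its level. These are the regulators Ppara and Ppargc1a, the carnitine palmitoyltransferases Cpt1a and Cpt2, the acyl-CoA dehydrogenases Acadvl, Acadl and Acadm, and the trifunctional protein subunits Hadha and Hadhb. They were chosen by gene symbol in the deposited expression tables, with the gene identifier carrying a symbol from 1 table to the other, and all 9 were found among the 32907 genes listed in either table. Expression was measured by bulk RNA sequencing of whole kidneys from adult male wild-type Wistar rats aged 10 to 12 weeks, which received drug or vehicle for 28 days from an osmotic minipump under the skin. One set compared cyclosporine A, with a target trough plasma level that the series text gives as 3 mg/ml (n = 4), with its saline vehicle (n = 4). The other compared tacrolimus, with a target trough of 3.5 ng/ml (n = 6), with its vehicle of 25% DMSO and 75% PEG (n = 6). Both drugs are calcineurin inhibitors used against transplant rejection, and the study compared their toxicity to the kidney. Each set was deposited as its own table, so every test of a drug was made within a table, and levels set side by side across tables are descriptions of values scaled separately. The labels number the replicates but do not say that each is a separate animal, so the p-values measure the spread between these samples.

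In the kidney, the proximal tubule takes most of its energy from fatty acids. CPT1A, on the outer mitochondrial membrane, joins a long-chain acyl group to carnitine and so sets how much enters the organelle, and CPT2 on the inner membrane returns it to coenzyme A. VLCAD, LCAD and MCAD, the products of Acadvl, Acadl and Acadm, make the first oxidation of each cycle on very long, long and medium chains. HADHA carries the hydratase and hydroxyacyl-CoA dehydrogenase steps on long chains and HADHB the thiolase step, as subunits of 1 complex. PPARA is a nuclear receptor that binds fatty acids and switches on many of these genes, and PGC-1α, the product of Ppargc1a, is a coactivator of PPARA and of other factors that control mitochondrial genes.

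Promoter windows of 300 bases (250 before to 50 after the start site) were taken from RefSeq on the GRCr8 build, whose coordinates differ from those of the deposited tables. An entry was matched for 8 of the 9 genes, all but Acadl. The palindromic cAMP response element TGACGTCA was found in 2 members, Ppargc1a and Acadm, and in 1.83% of all 33469 windows. In the following sequences, written 5′ to 3′ on the strand of the gene and ending at the base before the start site, the capitals mark that motif; they are shown because these 2 windows, of a regulator and of an enzyme, are those of the 8 that hold it.
Ppargc1a promoter, chr14:63634058-63634307, plus strand: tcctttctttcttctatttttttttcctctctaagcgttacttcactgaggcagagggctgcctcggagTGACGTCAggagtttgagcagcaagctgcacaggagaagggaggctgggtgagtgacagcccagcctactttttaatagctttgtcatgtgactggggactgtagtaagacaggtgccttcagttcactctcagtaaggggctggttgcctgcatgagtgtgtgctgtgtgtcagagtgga
Acadm promoter, chr2:245542865-245543114, minus strand: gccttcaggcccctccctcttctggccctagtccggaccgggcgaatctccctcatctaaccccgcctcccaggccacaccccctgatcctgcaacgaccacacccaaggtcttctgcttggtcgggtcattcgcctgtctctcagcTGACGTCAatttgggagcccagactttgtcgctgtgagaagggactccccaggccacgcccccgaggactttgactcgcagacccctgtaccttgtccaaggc
The motif began 181 bases before the start site of Ppargc1a and 103 bases before that of Acadm. A match of letters is a description only. On both strands, the direct repeat of AGGTCA with any 1 base between the copies, the textbook form of a PPARA site, was in none of the 8 windows and in 0.0538% of all windows. Its half-site AGGTCA was in those of Hadhb and Acadvl, and in 16.2% of all. The longer half-site TCAAGGTCA, which contains AGGTCA, was in none of the 8 and in 0.433% of all. The NRF1 motif, GCGCA followed at once by TGCGC, was in the window of Ppara, 100 bases before its start site, and in 0.852% of all windows.

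Hadha and Hadhb lie head to head. Their RefSeq start sites are 301 bases apart and the genes run in opposite directions, whereas the positions in the deposited tables, on another build, leave 6661 bases between the genes. In RefSeq much of the stretch between them belongs to both promoter windows. The part of that stretch outside both RefSeq genes is shown because both windows hold it. The ratio of the 2 subunits is given below with no test, and a part of this stretch in it was not tested. The sequence is written on the plus strand, 5′ to 3′, with no capitals because none of the motifs searched lies in it. It leaves out the few shared bases that RefSeq counts to Hadhb.
Hadhb-Hadha shared stretch, chr6:31907558-31907750, plus strand: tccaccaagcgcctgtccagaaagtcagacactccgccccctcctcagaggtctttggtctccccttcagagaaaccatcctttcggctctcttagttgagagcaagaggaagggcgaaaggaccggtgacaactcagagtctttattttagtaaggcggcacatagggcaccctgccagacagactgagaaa

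The libraries of the cyclosporine A set held 30468828 to 34309069 fragments assigned to genes, and those of the tacrolimus set 31670202 to 39358485. Levels are in FPKM, fragments scaled to gene length and to the library total. In the cyclosporine A table that total is all assigned fragments, those of the mitochondrial genome included, which took 59.8% ± 7.97 (SD, n = 4) of a saline library and 84.7% ± 4.68 (SD, n = 4) of a cyclosporine A library (exact permutation test, two-sided, p = 0.0286, the smallest that 4 against 4 allows; adjusted p = 0.0714 over 10 library measures). Nuclear genes were left with 10284040 to 17256918 fragments with saline and 2905940 to 6549374 with cyclosporine A. These ranges do not overlap, so nuclear depth and drug cannot be told apart on either scale. Over all 13455 genes tested the median log2 difference on the deposited values was −0.89. The values were therefore rescaled by median-of-ratios size factors, as the tacrolimus table already is, and both scales are given for cyclosporine A; the rescaled values show a gene's level relative to the other nuclear genes. The tissue label was checked against proximal tubule markers. In the tacrolimus set Slc5a2, the glucose carrier of the early proximal tubule, stood at 130 to 163 FPKM with tacrolimus and 132 to 161 with vehicle. In the cyclosporine A set Slc5a2 was near 0, at 0.110 to 0.502 rescaled FPKM with saline and 0.854 to 1.86 with cyclosporine A, as was Slc5a12 (0.165 ± 0.0776 and 0.640 ± 0.349, SD, n = 4 each), while Slc7a13, a carrier of the late proximal tubule, averaged 1076 and 672. In the saline group 20 of the 52 markers found had a mean below 1 FPKM, and with the DMSO/PEG vehicle, in the separately scaled table, 5 did. Among the 20 with saline were Slc5a2 and Slc5a12, the podocyte genes Nphs1 and Wt1, endothelial Cdh5, leukocyte Cd3e, Cd68, Itgam and Ptprc, adipocyte Cfd, Lep, Plin1 and Ucp1, urothelial Krt5, Upk1b, Upk2 and Upk3a, and Trpm6 and Pvalb of the distal convoluted tubule, the last listed at 0 in every library of both sets. Nphs1, which encodes nephrin of the glomerular filter, averaged 0.205 rescaled FPKM with saline and 13.4 FPKM with the DMSO/PEG vehicle, and Wt1 0.141 and 4.59. The part of this in the results below was not tested.

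The order of the 9 mean levels was the same in all 4 groups: Acadm, Hadhb, Acadl, Hadha, Acadvl, Cpt1a, Cpt2, Ppargc1a, Ppara. With saline, Acadm averaged 146 ± 8.49 rescaled FPKM (SD, n = 4) and Ppara, the lowest, 0.499 ± 0.186. In that group the ranges of Hadhb (51.0 ± 9.91), Acadl (48.0 ± 7.44), Hadha (38.2 ± 5.31) and Acadvl (30.8 ± 2.53) overlapped from each gene to the next, and the other neighbours did not overlap. With the DMSO/PEG vehicle, Acadm averaged 294 ± 25.4 FPKM (SD, n = 6) and Ppara 13.9 ± 2.55. There the same enzymes overlapped with their neighbours, and so did Cpt2 (21.6 ± 2.92) with Ppargc1a (17.6 ± 3.17) and Ppargc1a with Ppara. The distance between regulators and enzymes was not alike in the 2 tables. Per 1000 FPKM of Acadm in the same library, Ppara stood at 3.37 ± 1.07 with saline and 5.96 ± 4.88 with cyclosporine A (SD, n = 4 each), against 47.9 ± 12.9 and 41.7 ± 2.70 with the DMSO/PEG vehicle and tacrolimus (SD, n = 6 each). For Ppargc1a the same ratio was 11.04 ± 1.61 and 22.8 ± 11.02 in the cyclosporine A set and 60.7 ± 15.2 and 51.7 ± 5.08 in the tacrolimus set. Rats, vehicles and whatever else differed between the 2 sets cannot be told apart in these ratios.

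**Figure D1:**
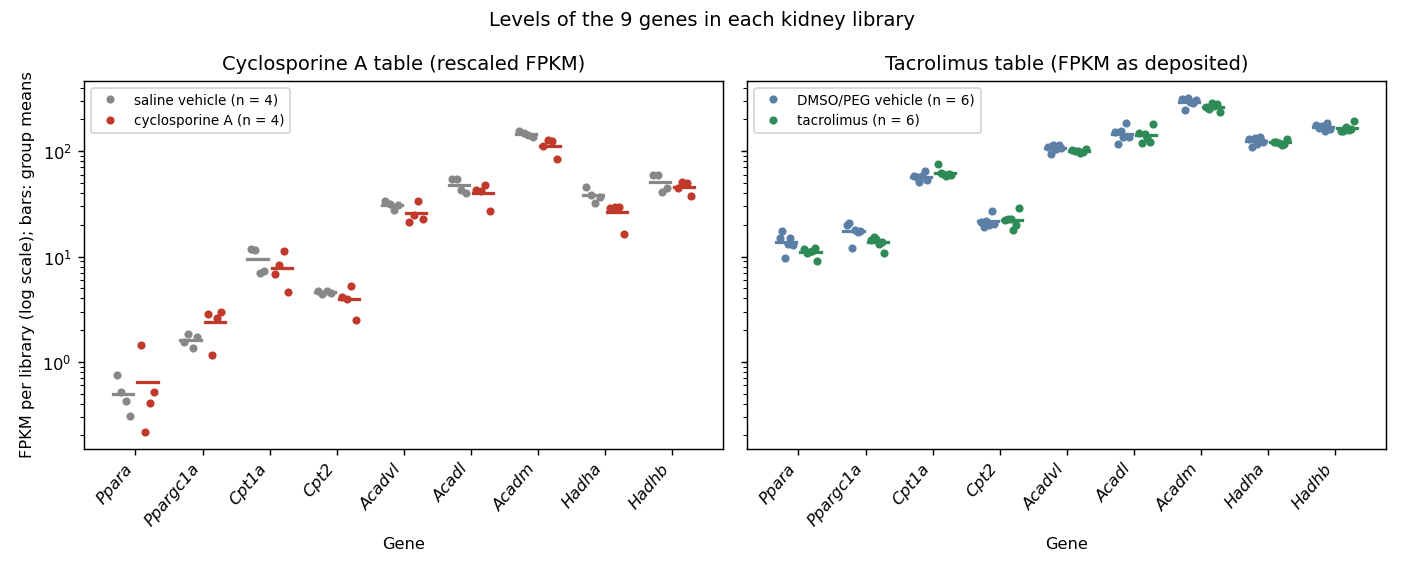
FPKM of each gene in every library on a log axis, for the cyclosporine A set on rescaled values (left) and the tacrolimus set on deposited values (right); points are libraries and bars group means. Mean levels of the 7 enzymes are lower with cyclosporine A than with saline, for Acadm and Hadha without overlap, while the tacrolimus and vehicle points of every gene overlap.

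None of the 9 genes passed the test with cyclosporine A on the rescaled values (limma, Benjamini-Hochberg adjusted p under 0.05 over 13455 genes), where 0.609% of all genes did. An unadjusted p under 0.05 was found for 2 of 9 (16.2% of all genes), in limma and in limma-voom on recovered fragments alike, and these 2, Acadm and Hadha, were also those whose groups did not overlap (2 of 9 lower; 6.11% of all genes). All 7 enzymes had a log2 difference below 0, from −0.56 to −0.14 with a median of −0.28, beside a median of 0.00 over all genes. Both regulators had one above 0 (Ppara below 0 in limma-voom, at −0.08). Differences are drug minus vehicle on the log2(FPKM + 1) scale, which understates those of genes with low values.

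Ppara, the fatty acid receptor (chromosome 7, 126619196 to 126681752, plus strand; positions here are those of the deposited tables, rn6 per the submitters' processing notes), stood at 0.747, 0.519, 0.422 and 0.308 rescaled FPKM with saline and at 1.44, 0.217, 0.410 and 0.515 with cyclosporine A. These rest on 30 to 96 and 11 to 51 fragments, and the cyclosporine A values span the whole saline range. The log2 difference was 0.09 (SE 0.20, 95% confidence interval −0.36 to 0.54, limma adjusted p = 0.872); without cyclosporine A replicate 1, the highest, it was −0.12. Ppargc1a, the coactivator (chromosome 14, 63095720 to 63187009, plus strand), stood at 1.54, 1.82, 1.35 and 1.72 with saline and at 2.85, 1.17, 2.62 and 3.00 with cyclosporine A. Of the 4 cyclosporine A libraries, 3 lie above every saline library and 1 lies below them all. Its log2 difference was 0.35 (SE 0.20, interval −0.10 to 0.80, limma adjusted p = 0.429), and without that low library, replicate 2, it was 0.55 with an adjusted p of 0.09998.

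Cpt1a, the entry step (chromosome 1, 218569510 to 218629678, plus strand), varied widely within both groups: 11.8, 11.6, 6.97 and 7.29 rescaled FPKM with saline and 6.90, 8.25, 11.2 and 4.64 with cyclosporine A. The groups overlapped (log2 difference −0.27, interval −0.83 to 0.29, limma adjusted p = 0.643). Cpt2, the inner membrane enzyme (chromosome 5, 127505614 to 127523089, minus strand), was tight with saline at 4.71, 4.39, 4.71 and 4.53 and spread with cyclosporine A at 4.09, 3.92, 5.22 and 2.52. One cyclosporine A library was above all saline libraries and the others below them, with a log2 difference of −0.21 (interval −0.58 to 0.17, limma adjusted p = 0.595).

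Among the dehydrogenases, Acadm (chromosome 2, 260124418 to 260148589, minus strand) stood at 155, 150, 143 and 136 rescaled FPKM with saline and at 113, 128, 125 and 84.0 with cyclosporine A. Every cyclosporine A library was below every saline library, with 2198 to 6741 fragments behind the drug values and 11994 to 20723 behind those of saline. The log2 difference was −0.39 (SE 0.14, interval −0.70 to −0.08, limma adjusted p = 0.204). Acadl (chromosome 9, 73833388 to 73871888, minus strand) averaged 48.0 ± 7.44 and 39.9 ± 8.85 (SD, n = 4 each) and Acadvl (chromosome 10, 56619303 to 56624526, minus strand) 30.8 ± 2.53 and 25.6 ± 5.67. For both the groups overlapped, with log2 differences of −0.28 and −0.28 (limma adjusted p = 0.484 and 0.387).

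Hadha (chromosome 6, 27589657 to 27629175, plus strand) had the most negative log2 difference of the 9 genes. It stood at 45.2, 38.7, 32.6 and 36.5 rescaled FPKM with saline and at 29.1, 29.8, 29.6 and 16.3 with cyclosporine A, again with no overlap. The log2 difference was −0.56 (SE 0.19, interval −0.99 to −0.13, limma adjusted p = 0.197). Replicate 4, the lowest, had the largest mitochondrial share of any library (90.8%) and the fewest nuclear fragments (2905940); without it the difference was −0.35 with an adjusted p of 0.176. Hadhb (chromosome 6, 27555412 to 27582995, minus strand), its partner, stood at 59.5, 59.4, 40.5 and 44.5 with saline and at 44.7, 51.4, 50.3 and 37.3 with cyclosporine A, which overlapped (log2 difference −0.14, interval −0.49 to 0.21, limma adjusted p = 0.719).

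The ratio of the 2 subunits does not depend on the scaling between libraries. Hadha per Hadhb was 0.6510 to 0.819 with saline (mean 0.758 ± 0.0758, SD, n = 4) and 0.437 to 0.6507 with cyclosporine A (0.564 ± 0.0904, SD, n = 4), so that the groups do not overlap but lie next to each other. With the DMSO/PEG vehicle it was 0.658 to 0.767 (0.732 ± 0.0385, SD, n = 6) and with tacrolimus 0.671 to 0.787 (0.732 ± 0.0464, SD, n = 6). This ratio was chosen after the values were seen and is given with no test. Hadhb and Ppara give whole fragment numbers in the cyclosporine A table only with gene lengths of 1790 and 1884 bases, shorter than the listed 1947 and 2129, so their levels relative to other genes are less sure there.

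**Figure D2:**
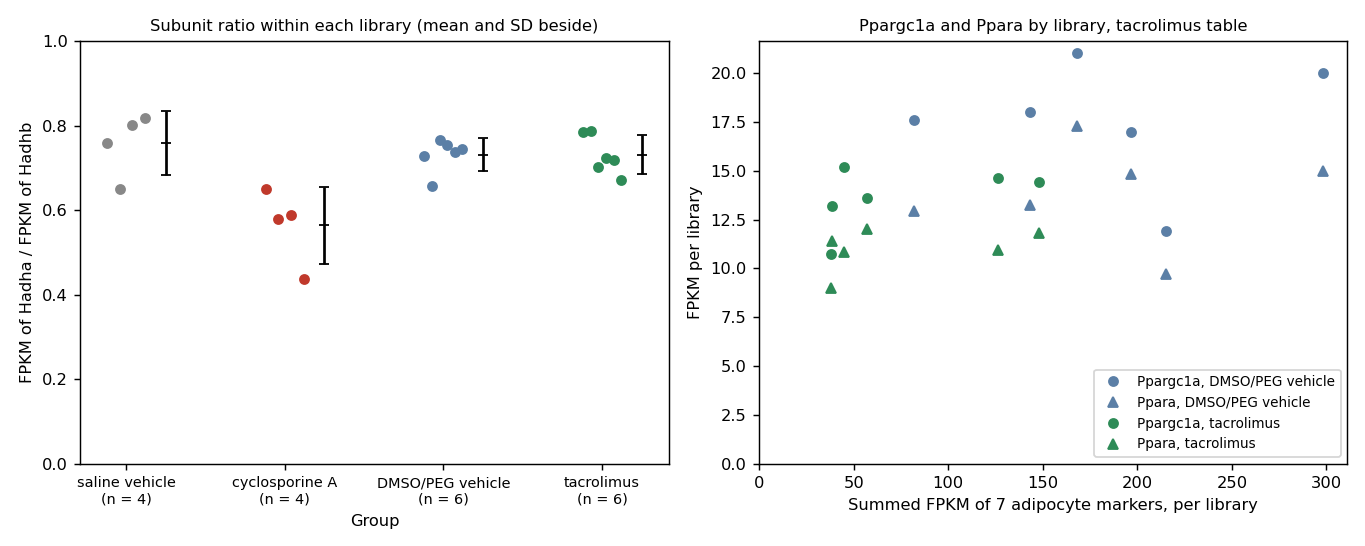
Left, FPKM of Hadha over FPKM of Hadhb in each library by group, with the group mean and SD beside the points. The cyclosporine A libraries (0.437 to 0.651) lie lowest, and the tacrolimus libraries (0.671 to 0.787) overlap those of their vehicle (0.658 to 0.767). Right, FPKM of Ppargc1a (circles) and Ppara (triangles) in the 12 libraries of the tacrolimus set against the summed FPKM of 7 adipocyte markers: the marker sum is 38.0 to 148 with tacrolimus and 82.1 to 298 with vehicle, and 1 vehicle library at 215 has low regulators.

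On the deposited cyclosporine A values, whose library totals include mitochondrial fragments, 8 of the 9 genes were called lower, where 80.9% of all genes were. Acadm, for example, stood at 187 to 309 FPKM with saline and 35.5 to 104 with cyclosporine A, and its log2 difference was −1.71 (SE 0.34, limma adjusted p = 0.000699). The differences of the 7 enzymes ran from −1.84 for Hadha to −1.25 for Cpt2, with a median of −1.56 beside −0.89 over all genes. On rescaled values these medians were −0.28 and 0.00. The log2(FPKM + 1) scale understates the differences of genes with low values. On deposited values the median over all genes can therefore lie nearer 0 than the shift of genes with high values. Ppargc1a was at −0.54 (limma adjusted p = 0.0318) and Ppara at −0.38 (limma adjusted p = 0.0542, not called); without cyclosporine A replicate 1 the adjusted p of Ppara was 0.0103. Ppargc1a did not pass without saline replicate 1 or 4 or cyclosporine A replicate 2 or 4 (adjusted p = 0.0588 to 0.107). For Ppargc1a the sign is thus opposite on the 2 scales, and so is that of Ppara.

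**Figure D3:**
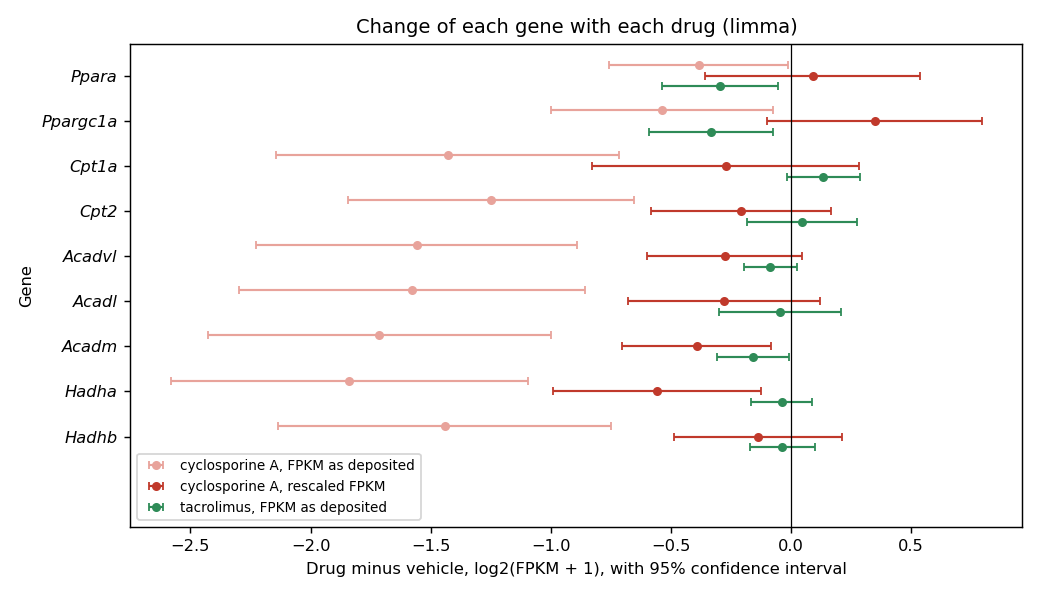
Drug minus vehicle for each gene on the log2(FPKM + 1) scale, with 95% confidence intervals from limma. Deposited cyclosporine A values (pale) lie left of 0 for all genes, rescaled values (red) are left of 0 for the 7 enzymes with intervals clear of 0 for Acadm and Hadha, and tacrolimus values (green) are near 0 with Ppargc1a and Ppara lowest.

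With tacrolimus none of the 9 genes passed the test (limma, adjusted over 15493 genes, where 0.303% passed), and in no gene were the groups apart (0.975% of all genes). An unadjusted p under 0.05 was found for 3 of 9 (8.58% of all genes), Ppargc1a, Ppara and Acadm, again in both limma and limma-voom. Ppargc1a stood at 11.9, 17.8 and 21.0 FPKM (lowest, median, highest) with vehicle and at 10.7, 14.0 and 15.2 with tacrolimus. Of the 6 vehicle libraries, 5 were above every tacrolimus library, and replicate 3 was below all but 1 of them. The log2 difference was −0.33 (SE 0.12, interval −0.59 to −0.08, limma adjusted p = 0.412), and without that replicate −0.43 with an adjusted p of 0.0752. Ppara stood at 9.72, 14.1 and 17.3 FPKM with vehicle and 9.01, 11.2 and 11.997 with tacrolimus, and the same vehicle library was the low one. Its log2 difference was −0.29 (SE 0.11, interval −0.54 to −0.05, limma adjusted p = 0.445), and −0.38 with an adjusted p of 0.108 without that library.

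Adipocyte markers are given beside these 2 regulators. The summed FPKM of the 7 markers was 82.1 to 298 with vehicle and 38.0 to 148 with tacrolimus (exact permutation test, two-sided, p = 0.0130; adjusted p = 0.0649 over 10 library measures). Fabp4 made up 60.04 to 64.9% of this sum with vehicle and 58.8 to 74.0% with tacrolimus. All 7 had a log2 difference below 0 and 2 of the 7 passed: Ucp1, the uncoupling protein of brown fat, fell by 3.33 (limma adjusted p = 0.000844), as did Cidea, a lipid droplet protein, by 1.36 (limma adjusted p = 0.0288). In limma-voom both had an adjusted p of 0.0514, and Cidea failed in 9 of the 12 fits that left out 1 library (up to 0.0838). Ucp1 stood at 6.19 to 25.8 FPKM with vehicle and 0 to 2.45 with tacrolimus. Vehicle replicate 3, low in both regulators, had a marker sum of 215. The part of fat in the values of Ppargc1a and Ppara was not tested, and in whole kidneys fewer cells of a type and less RNA per cell cannot be told apart.

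The 7 enzymes had log2 differences between −0.16 and 0.14 with tacrolimus. Acadm stood at 249, 300.0 and 322 FPKM (lowest, median, highest) with vehicle and 234, 264 and 285 with tacrolimus, which overlapped (log2 difference −0.16, interval −0.31 to −0.01, limma adjusted p = 0.539). Cpt1a stood at 50.6, 57.5 and 64.3 with vehicle and at 58.4, 60.8 and 75.3 with tacrolimus, with a log2 difference of 0.14 (interval −0.02 to 0.29, limma adjusted p = 0.643). For Cpt2 the log2 difference was 0.05, for Acadvl −0.09, for Acadl −0.04, for Hadha −0.04 and for Hadhb −0.04. The widest interval among these 5, that of Acadl, ran from −0.30 to 0.21. Summed proximal tubule markers were 5500 to 5986 FPKM with vehicle and 5349 to 6393 with tacrolimus.

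The change with cyclosporine A was also set against that with tacrolimus, on rescaled and deposited values respectively. None of the 9 genes passed (limma, adjusted over 13392 genes; 1.63% of all genes did), and 2 had an unadjusted p under 0.05 (16% of all genes). Ppargc1a had a difference of the differences of 0.68 (SE 0.23, interval 0.19 to 1.17, adjusted p = 0.152). It passed without cyclosporine A replicate 2 (0.89, adjusted p = 0.0185), but turned negative with deposited cyclosporine A values. Hadha had a difference of the differences of −0.52 (SE 0.20, interval −0.96 to −0.08, adjusted p = 0.232). For the 7 enzymes it ran from −0.52 to −0.10. Drug, dose, vehicle and set cannot be told apart in this contrast.

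Proximal tubule markers are given beside the enzymes of the cyclosporine A set. Their summed rescaled FPKM was 1535 to 1982 with saline and 740 to 1591 with cyclosporine A, which overlapped (exact permutation test, two-sided, p = 0.0571, adjusted p = 0.114 over 10 library measures). Slc7a13 alone made up 56.7 to 62.2% of this sum with saline and 47.9 to 59.1% with cyclosporine A, and without it the sum was 606 to 850 and 321 to 718. Of the 13, 9 had a log2 difference below 0, none of which passed, while Slc5a2 rose by 0.94 from its low level (limma adjusted p = 0.0384). Their median was −0.39, beside −0.28 for the 7 enzymes. An unadjusted p under 0.05 was found for 8 of the 13 (6 lower and 2 higher; 16.2% of all genes), and 5 were lower with groups apart (6.11% of all genes). Cyclosporine A replicate 4, the lowest library for every enzyme but Acadvl, was lowest in this sum too. Single markers of other segments passed: Umod of the thick ascending limb fell by 1.36 (limma adjusted p = 0.0491), Calb1 of the distal convoluted tubule by 1.85 (limma adjusted p = 0.0251), and Upk1a of the urothelium rose by 1.51 (limma adjusted p = 0.0196). The other markers of these segments did not pass: for the thick ascending limb Slc12a1 was at −0.95 (limma adjusted p = 0.0511), Kcnj1 at −0.11 and Cldn16 at 0.21, and for the distal convoluted tubule Trpm6 was at −0.06 and Slc12a3 at 0.27. All 4 urothelium markers tested were higher at an unadjusted p under 0.05 (16.2% of all genes), with a median of 0.99: beside Upk1a, Upk3a was at 1.195, Upk1b at 0.78 with groups apart (limma adjusted p = 0.0951) and Krt5 at 0.73. The summed urothelium markers were 1.64 to 4.198 rescaled FPKM with saline and 7.29 to 17.8 with cyclosporine A (exact permutation test, two-sided, p = 0.0286; adjusted p = 0.0714 over 10 library measures). For the thick ascending limb the sums were 313 to 565 and 149 to 247, with Umod at 73.9 to 83.3% and 58.9 to 72.0% of them. For the distal convoluted tubule they were 52.8 to 76.7 and 24.2 to 33.5, with Calb1 at 71.0 to 91.5% and 39.5 to 81.1%. Both sums had the same p and adjusted p in that test as the urothelium sum. With tacrolimus Calb1 fell by 3.81, Slc12a3 by 1.24 and Trpm6 by 0.85 (limma adjusted p = 1.74e-11, 0.000159 and 9.54e-05). With each of the 8 libraries of the cyclosporine A set left out in turn, Umod did not pass in any fit (−1.53 to −1.17, adjusted p 0.0586 to 0.136), Slc5a2 failed in 7 (0.86 to 1.07), Calb1 in 6 (−2.09 to −1.67) and Upk1a in 2 (1.41 to 1.66; without saline replicate 3 or 4), while the 3 tacrolimus calls passed without any 1 of the 12 libraries. Among the 4 endothelial markers tested with cyclosporine A, 3 were below 0 and 1 above, with a median of −0.13. Plvap was at −1.97 with groups apart but did not pass (limma adjusted p = 0.0676). The part of cell makeup in the enzyme values was not tested.

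In the same fits 4 further lists of the pathway were tested, with 84 genes found in all. None of their genes passed with either drug (limma; cyclosporine A on rescaled values), while limma-voom on recovered fragments called 2 Ppara targets with cyclosporine A (2% of all genes), and 1 regulator and 1 Ppara target with tacrolimus (0.316% of all genes). With cyclosporine A, 5 of 20 other mitochondrial beta-oxidation genes had an unadjusted p under 0.05, beside 16.2% of all genes, and all 5 had lower values (list median −0.17). Those with the smallest p were Mlycd, which removes malonyl-CoA, the inhibitor of CPT1, at 21.6 ± 0.527 rescaled FPKM with saline and 14.8 ± 2.55 with cyclosporine A (log2 difference −0.53, limma adjusted p = 0.0888), and Hsd17b10, a short-chain hydroxyacyl-CoA dehydrogenase, at −0.45 (limma adjusted p = 0.138). Of 18 peroxisomal beta-oxidation genes, 7 had an unadjusted p under 0.05 (16.2% of all genes), again all lower (list median −0.32). Among them Crot, which hands shortened acyl groups to carnitine, was at −0.52 (limma adjusted p = 0.127) and Acot8, a peroxisomal thioesterase, at −0.69 (limma adjusted p = 0.145).

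None of the 22 other regulators had an unadjusted p under 0.05 with cyclosporine A (list median −0.08). The smallest p-values belonged to Hnf4a, a nuclear receptor of the proximal tubule (log2 difference −0.36, limma adjusted p = 0.345), and Nrip1, a corepressor (−0.27, limma adjusted p = 0.431). Of 19 Ppara target genes 3 were higher and 2 lower at an unadjusted p under 0.05 (16.2% of all genes in either direction; list median −0.11). Ucp2, a mitochondrial carrier, was at 0.65 (limma adjusted p = 0.0912) with groups apart, and Cyp4a3, a fatty acid hydroxylase, at −1.25 (limma adjusted p = 0.112), also apart. On the deposited values 17 of 20, 18 of 18, 21 of 22 and 13 of 19 genes of these lists were called lower, where 80.9% of all genes were.

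With tacrolimus the medians of the 4 lists lay between −0.01 and 0.02, and 2 of the mitochondrial and 2 of the peroxisomal genes had an unadjusted p under 0.05, where 8.58% of all genes did. Among mitochondrial genes Acad9 was at 0.25 and Etfdh at −0.16 (limma adjusted p = 0.528 and 0.560), and among peroxisomal genes Amacr was at 0.24 and Ehhadh at 0.20 (limma adjusted p = 0.318 and 0.369). Of the 22 regulators, 4 had an unadjusted p under 0.05 (8.58% of all genes), all lower. Acaca, which makes malonyl-CoA, stood at 3.74 ± 0.418 FPKM with vehicle and 2.67 ± 0.256 with tacrolimus with groups apart (log2 difference −0.37, limma adjusted p = 0.0664), and Esrrb, an orphan nuclear receptor, was at −0.42 (limma adjusted p = 0.120). Of 21 Ppara targets, 2 were higher and 5 lower at that level (8.58% of all genes in either direction). Ucp3, a carrier of muscle and brown fat, was at −0.30 (limma adjusted p = 0.0537) and Fabp3, a fatty acid binding protein, at −0.37 (limma adjusted p = 0.148), beside the adipocyte markers given above.

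**Figure D4:**
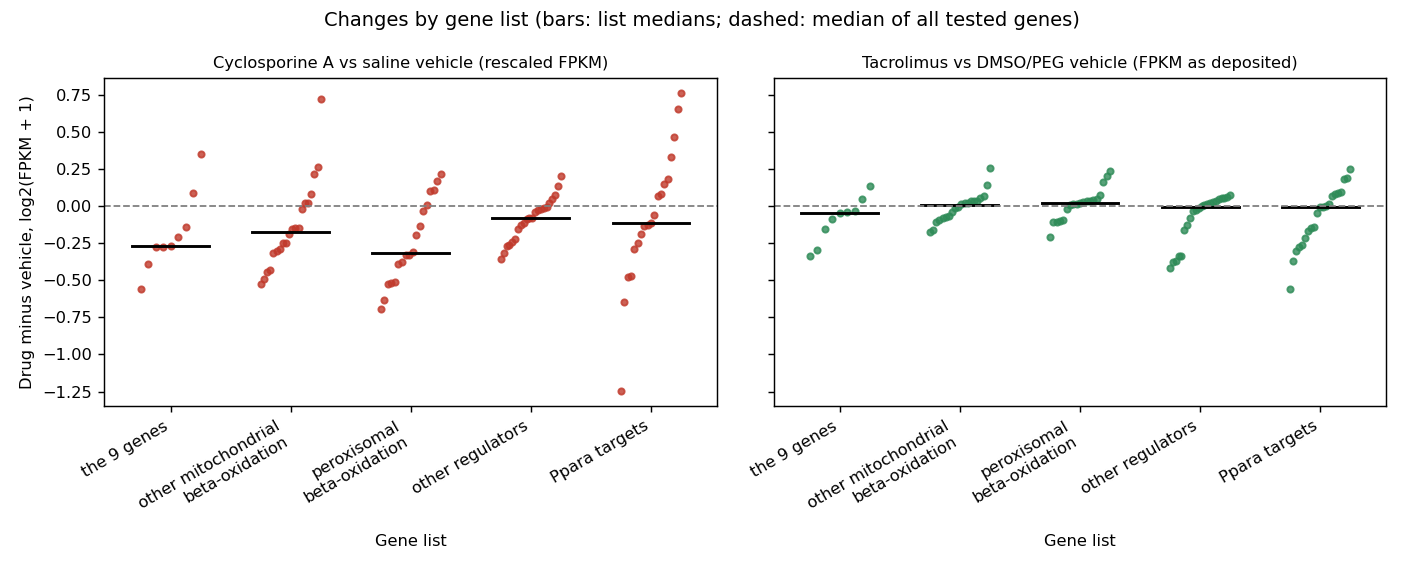
Drug minus vehicle on the log2(FPKM + 1) scale for each gene of 5 lists, sorted within a list; bars are list medians and the dashed line the median of all genes tested. With cyclosporine A on rescaled values (left) the medians of the 9 genes and of the peroxisomal list are at −0.27 and −0.32, and with tacrolimus (right) all list medians lie within 0.05 of 0.

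Of the 79 genes of these lists tested for it, 2 differed between the drugs (1.63% of all genes did). Mlycd had a difference of the differences of −0.67 (limma adjusted p = 0.0407) and Fabp3 one of 0.70 (limma adjusted p = 0.0130). Mlycd did not pass in 11 of the 20 fits that left out 1 library, among them each that left out a saline library (adjusted p = 0.0971 to 0.122), and Fabp3 did not without saline replicate 4 (adjusted p = 0.0618) and turned to −0.61 with deposited cyclosporine A values.

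After centring within groups, the 7 enzymes followed each other from library to library in the cyclosporine A set. Pearson's r with the mean of their standardized log2 values was 0.71 for Acadvl to 0.97 for Cpt1a over 8 libraries, values that include each gene in the mean. It was 0.01 for Ppara and −0.29 for Ppargc1a. The genes outside the lists with the highest r were Glyctk (0.995), Slc6a8 (0.993), Apoc3 (0.990), Gpd1 (0.990) and Tex264 (0.990). In the tacrolimus set, over 12 libraries, r was 0.70 to 0.95 for 5 enzymes, 0.26 for Cpt1a and 0.25 for Acadm, −0.43 for Ppara and −0.47 for Ppargc1a, and the most similar genes were Ykt6 (0.936), Dnaja3 (0.929), Ecsit (0.918), Rpa1 (0.905) and AABR07039541.1 (0.904). These are descriptions across libraries that also share depth and cell makeup, and no p is given.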

How the data were processed

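Whole-kidney RNA was sequenced after NEBNext library preparation, per the labels' protocols; HISAT2 and the rn6 build are named in the submitters' processing notes, and the counting program, strand setting and annotation are not given in the sources used here. The authors deposited FPKM values in 2 tables. Fragment numbers were recovered from the steps in these values: with the listed gene length 100% of values above 0 came out whole in the tacrolimus table and 74.2% in the cyclosporine A table, where 4445 genes needed a shorter length. The deposited tacrolimus scale equals median-of-ratios size factors; the cyclosporine A table was rescaled to the same kind. Genes needed 10 fragments at the median library size in as many libraries as the smaller group and 15 in all. Values were tested as log2(FPKM + 1) with limma 3.58.1 in R 4.3.3 (trended variance, Benjamini-Hochberg, threshold 0.05); library measures had exact permutation tests. On simulated data, changes of 1 and 2 on the log2 scale were recovered in 82% and 98% of 100 changed genes (cyclosporine A, 13455 genes in all) and 97% and 96% (tacrolimus, 15493 genes). The differences of the 9 genes were smaller, at −0.56 to 0.35 with cyclosporine A on rescaled values and −0.33 to 0.14 with tacrolimus. These shares therefore do not show how often changes of that size would be found.

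The 9 genes, the lists and the tests were chosen with earlier results of these data known. All 9 genes are named; from each pathway list and drug, up to 6 genes that passed, or the 2 with the smallest p; from marker lists, genes that passed (for either drug or the difference) or stood near 0 (a group mean below 1 FPKM, a limit set after the values were seen; 1 marker is not reported here); and the 5 most similar genes per table. Acaa1b, Eci2 and Pecam1 of the lists were not matched. Alternatives were another pseudocount (0.1), no filter, a mean FPKM of at least 1, other scalings, limma-voom, no variance trend, a replicate block and leaving out each library.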

Additional observations from a re-analysis of the deposited data

Results flagged for a closer look

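In 18 of 204 groups of a gene tested, 1 library stood far from the others, where 1 in 20 would give about 10.2. That figure takes the groups as independent and the values as continuous. Genes listed at 0 and flags that share a library do not meet this, so no excess is read from it. Among the 9 genes, Hadha was at 16.3 rescaled FPKM in cyclosporine A replicate 4 (others 29.1 to 29.8), Cpt1a at 75.3 FPKM in tacrolimus replicate 1 (others 58.4 to 62.2), Cpt2 at 27.2 in DMSO/PEG vehicle replicate 5 (others 19.0 to 21.8) and Hadhb at 194 in tacrolimus replicate 6 (others 156 to 169). Among the other genes, Acaca was at 0.107 rescaled FPKM in saline replicate 3 (others 0.335 to 0.378), Ucp3 at 0.130 in cyclosporine A replicate 4 where the others were listed at 0, Hnf4a at 215 FPKM in tacrolimus replicate 3 (others 177 to 190), Umod at 2292 in DMSO/PEG vehicle replicate 5 (others 1828 to 1940) and at 2365 in tacrolimus replicate 6 (others 1380 to 1695), and Calb1 at 14.9 in tacrolimus replicate 6 (others 12.3 to 13.1). Among markers near 0 in the saline group, Cd3e (0.324 rescaled FPKM), Cd68 (2.77) and Itgam (0.183) were highest in cyclosporine A replicate 4, where the others reached at most 0, 0.519 and 0.0304, and Lep was at 0.104 in cyclosporine A replicate 3 with the others listed at 0. In the tacrolimus set Slc5a12 was at 52.1 FPKM in DMSO/PEG vehicle replicate 3 (others 71.5 to 80.2), Cd68 at 10.498 and Itgam at 1.03 in replicate 2 of that group (others at most 6.95 and 0.429), and Upk3a at 4.69 in tacrolimus replicate 2 (others 2.05 to 3.01).

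The change with cyclosporine A (rescaled FPKM) minus that with tacrolimus passed the limma test for 10 of the 125 other genes of the pathway and marker lists tested (1.63% of all genes) and for none of the 9. It was −2.12 for Plvap, an endothelial gene (adjusted p = 0.0383), −0.83 for Slc12a1 of the thick ascending limb (0.0482), −0.67 for Mlycd (adjusted p = 0.0407), 0.70 for Fabp3 (0.0130), 0.88 for Slc5a2 (0.0279), −1.16 for Umod (0.04999), 1.96 for Calb1 (0.00876), 0.79 for Trpm6 (0.0254), 1.59 for Cidea (0.0413) and 1.67 for Upk1a (0.00447). Calb1 was lower with both drugs. With each of the 20 libraries left out in turn, Umod lost its call in 15, Cidea in 12, Mlycd in 11, Slc12a1 in 10, Plvap in 6, Slc5a2 and Trpm6 in 4 each and Fabp3 in 1, each with its sign unchanged in all 20.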

How the results depend on the processing

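With cyclosporine A on rescaled values, 82 genes passed, against 1 with no filter and 269 with limma-voom. Leaving out 1 library gave 1 (without saline replicate 4) to 139 (without cyclosporine A replicate 4), and 2, 22, 3, 27 and 18 without saline replicates 1, 2 and 3 and cyclosporine A replicates 1 and 3. None of the 9 genes passed in any of these. For the difference between the drugs, 218 genes passed, against 131 with no filter and 10068 with deposited cyclosporine A values. Leaving out 1 library gave 27 (without saline replicate 4) to 267, and 45, 75, 79 and 95 without saline replicates 1, 2 and 3 and cyclosporine A replicate 1. Of the 9 genes, 7 passed with deposited cyclosporine A values and 0 to 1 with a library left out, the 1 being Ppargc1a. On deposited values alone 7 to 9 of the 9 passed with a library left out, and with tacrolimus none. The cause was not tested.

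Of the 9 genes' values over these settings, 141 of 143 on rescaled cyclosporine A values, 108 of 116 on deposited ones, 177 of 180 with tacrolimus and 215 of 225 for the difference kept their sign and their side of the threshold. Signs turned for Ppara with cyclosporine A (−0.080 in limma-voom; −0.12 to 0.22 with a library left out), for Cpt2 (−0.028 to 0.11) and Acadl (−0.12 to 0.028) with tacrolimus when a library was left out, and for the difference with deposited cyclosporine A values (Ppara −0.090, Ppargc1a −0.20, Fabp3 −0.61).

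On deposited values the summed markers with cyclosporine A, as percent of saline, were 29.1 for proximal tubule, 18.2 for thick ascending limb, 17.4 for distal convoluted tubule, 20.8 for endothelium and 33.5 for leukocytes, which then passed (exact permutation test, adjusted p = 0.0476). Collecting duct (47.2, rescaled 133) and podocyte sums (54.1, rescaled 151) changed direction.

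Replicate numbers were shared only as numbers: same-numbered libraries correlated at −0.149 to 0.212 in the cyclosporine A set and −0.151 to 0.182 in the tacrolimus set, and 1 of 4 and 2 of 6 numbers correlated best with their own. With a replicate block the 82 calls became 6. Depth limits Ppara in the cyclosporine A set, which rests on 11 to 96 fragments.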
